A study of Oryza sativa with 6 samples.

Results

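The features described here are those of the deposited rice tables whose identifiers begin with EPlOSAG, the prefix of Ensembl Plants for features of its rice annotation that lie outside the gene set of the Rice Annotation Project (RAP). A feature was taken as a member when it had at least 10 reads in every OsRUS1-OX library or in every WT library. This rule gave 310 members among 53311 EPlOSAG features and 91180 features in all. The members were thus chosen by their read counts in either genotype, so their levels are given as a description. RNA had been sequenced from flag leaves, picked at heading at 11 h on a sunny day, with 3 libraries per genotype, each from the pooled leaves of 3 plants collected independently. OsRUS1-OX was a single transgenic line in the cultivar ZH-11 that overexpresses OsRUS1 fused to GFP, and its leaves were rolled when picked. WT was ZH-11 with expanded leaves and without the transgene. Since every OsRUS1-OX leaf was rolled and every WT leaf was expanded, genotype and leaf state cannot be told apart.

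RAP curates rice genes largely from full-length transcripts and protein evidence. Ensembl Plants adds features that its own pipeline places on the genome, many of them short and without a coding frame. In plants, short non-coding RNAs include transfer RNAs, small nuclear and nucleolar RNAs and the hairpin precursors of microRNAs, and most of these mature RNAs carry no poly(A) tail. The libraries here were made from RNA caught on poly-T beads and broken into pieces, and the pieces that were kept by size were, per the study's methods, longer than most of the features described here. The tables pair no EPlOSAG identifier with a name, a position or a sequence, and the RefSeq rice gene table matched 0 of the 310 members. No role is therefore given to any of them, and they are ordered by length, level and difference between genotypes. The reads were also, per the study's methods, longer than most members, so a read counted on such a member extends past its ends. Counts and FPKM are therefore values assigned to a member and are not shown to be levels of a separate RNA. The setting of the read counter for strand and for overlapping features was not stated, and the transcripts that such reads came from cannot be told from the counts.

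The reads counted on all features numbered between 11918655 and 13532579 in OsRUS1-OX libraries and between 8759812 and 11744177 in WT libraries. At these totals 3 reads, the upper limit that a count of 0 allows, corresponded to between 0.222 and 0.342 CPM (counts scaled to a common library total), a limit that covers counting error only. OS04G0290800, the gene with a vitamin B6 description that stands for the overexpressed gene, had 7313, 3515 and 7577 reads in OsRUS1-OX and 57, 120 and 102 reads in WT. Each library thus matched its genotype label, while the order of the replicates cannot be checked in this way. All 9 flag leaf marker genes reached 10 reads in each library. Of 5 flower and panicle markers 2 reached 10 reads in every library, with a summed level of 23.1 to 31.2 CPM in OsRUS1-OX and 16 to 26.3 CPM in WT. Of 3 root markers 2 had no read in any library, and the summed root level of 43.4 to 46.8 CPM in OsRUS1-OX and 23.2 to 39.2 CPM in WT came from OS02G0745100 alone.

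WT replicate 2 stood apart from the other WT libraries in the EPlOSAG features. This was examined in the 181 members with a mean of at least 20 normalized counts, that is, counts divided by the library size after scaling by edgeR's TMM factors. WT replicate 2 was the lowest of the 3 WT libraries in 106 of them (58.6%), against 37.7% of 17518 RAP genes under the same read rule and the same minimum of 20 counts. Levels above that minimum were not matched, since 7323 of these RAP genes had at least 300 normalized counts, against 3 of the members. The RAP share also varied with length. WT replicate 2 was lowest in 21.3% of the 94 RAP genes under 300 bases. In the 5148 of 2000 bases or more it was lowest in 53.8%, near the members' share. The members' median log2 ratio of a library to the mean of the other 2 libraries of its genotype was -0.52 in WT replicate 2. In the other libraries this median was -0.04, 0.07 and -0.04 in OsRUS1-OX replicates 1 to 3, 0.19 in WT replicate 1 and 0.15 in WT replicate 3. WT replicate 2 was more than 2-fold below the mean of the other WT libraries in 55 members (30.4%). This was so in 4.58% of the RAP genes, and in 5.52% of those of 2000 bases or more.

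The low values were found in short and in longer members. The median log2 ratio in WT replicate 2 was -0.51 in the 103 members under 75 bases and -0.53 in the 78 members of 75 bases or more. In RAP genes the same library moved with length in another way, with a median log2 ratio of 0.41 in the 94 genes under 300 bases and -0.16 in the 5148 genes of 2000 bases or more. The part of length or of library preparation in these values was not tested. The main counts of differing members below are given with and without this library.

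**Figure D1:**
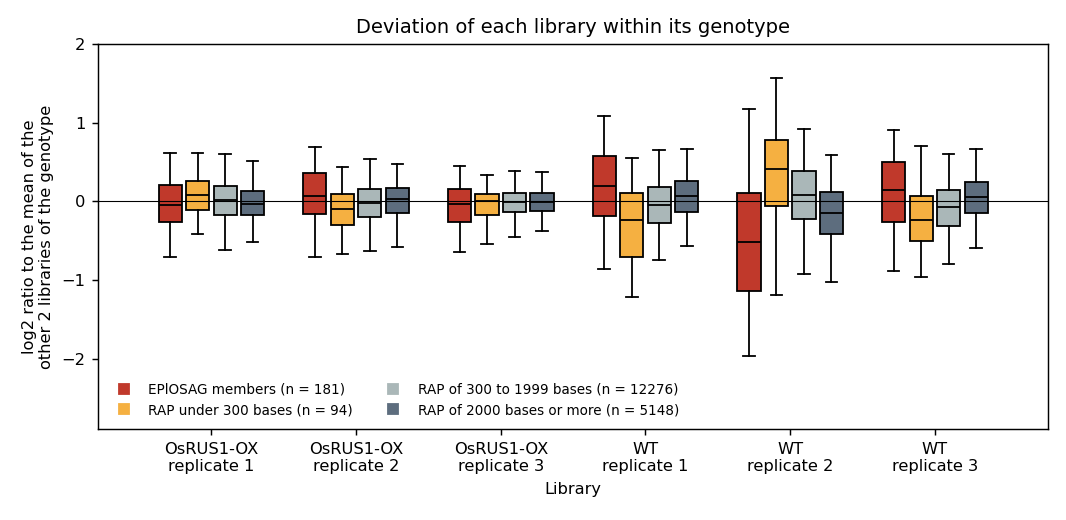
Deviation of each library from the mean of the other 2 libraries of its genotype, as a log2 ratio of normalized counts, for the 181 EPlOSAG members with a mean of at least 20 normalized counts and for RAP genes in 3 length classes; boxes span the quartiles, lines the median and whiskers the 5th to 95th percentile of features. The members' box in WT replicate 2, with a median of -0.52, has the lowest median of all the boxes, while the RAP genes under 300 bases are highest in that library, with a median of 0.41.

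Most EPlOSAG features had no read counted in these libraries. The study based its FPKM on uniquely mapped reads, so a feature without a counted read is not shown to be silent. A read in any of the 6 libraries was found for 3790 EPlOSAG features (7.11%), against 27962 of 37869 RAP features (73.8%), and 1450 of the 3790 had only 1 or 2 reads over all 6 libraries. The 310 members were 0.581% of the EPlOSAG features and 8.18% of those with a read, whereas 19035 RAP features (50.3%) met the same rule. Of the members, 190 met it in both genotypes, 82 in OsRUS1-OX only and 38 in WT only. The RAP features also met it more often through OsRUS1-OX, with 17165 in both genotypes, 1511 in OsRUS1-OX only and 359 in WT only. The rule took 26 members at exactly 10 reads in their lowest library, while 25 EPlOSAG features stopped at 9.

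The members and non-members nearest to that limit were as follows. Just inside, EPlOSAG00000047708 had 15, 19 and 10 reads in OsRUS1-OX and 1, 8 and 1 in WT, and EPlOSAG00000025494 had 14, 12 and 10 reads in OsRUS1-OX and 0, 8 and 4 in WT. Just outside, EPlOSAG00000026945 had 12, 15 and 9 reads in OsRUS1-OX and 9, 29 and 34 in WT, and EPlOSAG00000015643 had 11, 9 and 14 reads in OsRUS1-OX and 8, 9 and 24 in WT. Both features just inside entered through OsRUS1-OX, whose libraries held more reads than those of WT, and both just outside had 9 reads in their lowest OsRUS1-OX library.

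The EPlOSAG features took a small part of the sequencing. Over all 53311 of them, whether members or not, the share of counted reads was 0.158%, 0.164% and 0.157% in OsRUS1-OX and 0.186%, 0.149% and 0.201% in WT. The mean was 0.16% ± 0.00411 in OsRUS1-OX and 0.179% ± 0.0266 in WT (SD, n = 3 libraries each), a difference of -0.0191 percentage points with an exact two-sided permutation p of 0.4, where 3 libraries against 3 cannot give a p under 0.1. The lowest value was that of WT replicate 2, and without it the difference was -0.0338 percentage points. Without WT replicate 3, the highest library, it was -0.00782 percentage points. The members alone took 0.116%, 0.124% and 0.116% in OsRUS1-OX and 0.138%, 0.107% and 0.142% in WT. In FPKM, reads scaled by the length of the feature and by the library total, the EPlOSAG features held 3.07%, 3.24% and 3.08% of the summed value in OsRUS1-OX and 3.73%, 2.94% and 4.0% in WT.

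The length of each feature was recovered from the deposited values, because the authors computed FPKM from the same counts and the length. Dividing the counts by the FPKM and by the library total gave a whole number of bases, within 0.01, for all 310 members. The members were short, with 21 to 248 bases, a median of 70 bases and quartiles of 54 and 93.75 bases. Under 50 bases were 58 members, 185 had 50 to 99 bases, 50 had 100 to 149 bases and 17 had 150 bases or more. RAP features under the same read rule had 97 to 8110 bases, with a median of 1529, and 0.00525% of them were under 100 bases, against 78.4% of the members.

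Single lengths recurred among the members. A length of 61 bases was held by 9 members, 70 and 72 bases by 8 each, and 57, 64, 68 and 87 bases by 7 each. The members were not the longer part of their class, since the 3480 EPlOSAG features with a read that were not members had a median of 73 bases. The longest EPlOSAG feature with any read, EPlOSAG00000008516, had 1811 bases and 2 reads, both in WT replicate 3.

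**Figure D2:**
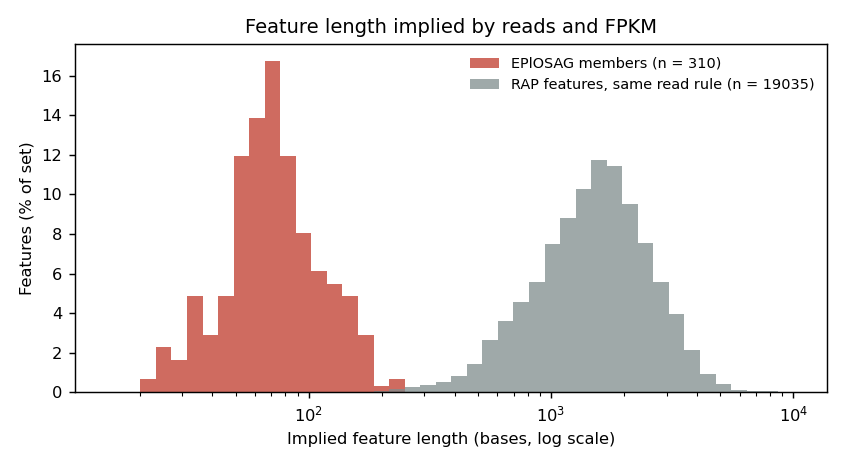
Feature length in bases (log scale) implied by the deposited counts and FPKM, as the percent of features of each set in each length class, for the 310 EPlOSAG members and the 19035 RAP features under the same read rule. The members end at 248 bases and centre on 70, while the RAP features centre on 1529 bases.

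The shortest member, EPlOSAG00000017483 with 21 bases, had 27, 23 and 51 reads in OsRUS1-OX and 23, 14 and 39 in WT, so the genotypes overlapped. EPlOSAG00000017693 with 22 bases had 13, 12 and 15 reads in OsRUS1-OX and 11, 11 and 17 in WT, which also overlapped. The longest member, EPlOSAG00000007376 with 248 bases, had 38, 27 and 22 reads in OsRUS1-OX and 19, 23 and 17 in WT. These 3 members had fitted log2 fold changes of 0.01, -0.34 and 0.17, and none of them was called.

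Per length, most members had high values on few reads. Their mean count over the 6 libraries was 7.83 to 1040 reads, with a median of 24.3 and quartiles of 15.4 and 47.0, against a median of 193 reads for the RAP features under the rule. Only 24 members (7.74%) exceeded 100 reads, against 65.2% of the RAP features. Their mean FPKM was 3.68 to 3130, with a median of 30.0, against 11.2 for the RAP features. An FPKM over 15 was reached by 258 members (83.2%), against 42.0% of the RAP features. Ranked among the 19345 features under the rule, 36 members stood within the 1000 of highest mean FPKM and 0 within the 1000 of highest mean CPM.

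The order by FPKM followed the length, since a shorter feature gives a higher FPKM for the same reads. The median count was 29.0 reads in members under 50 bases, 22.3 from 50 to 74 bases, 24.7 from 75 to 99 bases, 25.2 from 100 to 149 bases and 17.7 at 150 bases or more. The median FPKM over the same classes was 73.3, 32.1, 25.5, 17.8 and 8.47. Across the 310 members, which share their libraries, Spearman's rho of length with mean reads was -0.03 and that of length with mean FPKM was -0.51, given as a description.

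**Figure D3:**
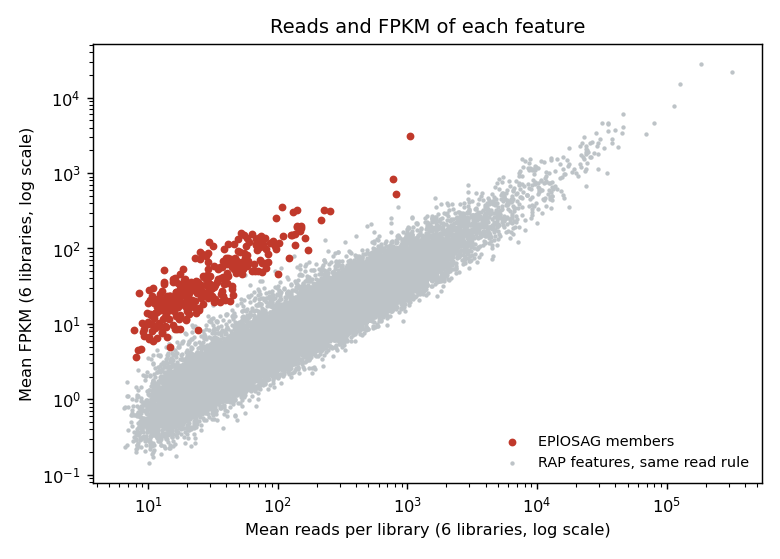
Mean FPKM against mean reads per library over the 6 libraries, both on log scales, with 1 point for each EPlOSAG member and each RAP feature under the same read rule. At equal reads most members lie above most RAP features, and their median FPKM is 30.0 on a median of 24.3 reads, against 11.2 on 193 reads.

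The reads were spread unevenly over the members. The 3 members with the most reads held 18.3% of the 86083 reads on members, and the 10 with the most held 27.6%. EPlOSAG00000022933, with 29 bases, was the most abundant by reads and by FPKM. It had 997, 841 and 983 reads in OsRUS1-OX and 931, 1288 and 1192 in WT, which is 832 ± 20.5 normalized counts in OsRUS1-OX and 1310 ± 45.4 in WT (SD, n = 3 each). After scaling, all 3 OsRUS1-OX libraries were below the lowest WT library. In edgeR's quasi-likelihood (QL) test, run over all features, it fell by 0.65 on the log2 scale (standard error, SE, 0.10 and edgeR QL adjusted p = 0.0038). Its mean FPKM of 2500 ± 71.5 in OsRUS1-OX and 3750 ± 73.5 in WT (SD, n = 3 each) made it the 16th of the 19345 features by FPKM, while by CPM it was the 1987th.

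The next members by CPM did not pass the test, with the exception of EPlOSAG00000047686. EPlOSAG00000004225, with 138 bases, had 877, 650 and 809 reads in OsRUS1-OX and 943, 633 and 978 in WT, with a log2 fold change of -0.55 (SE 0.23 and edgeR QL adjusted p = 0.13). EPlOSAG00000015576, with 81 bases, had 873, 813 and 745 reads in OsRUS1-OX and 754, 530 and 940 in WT, with a log2 fold change of -0.27 (SE 0.24 and edgeR QL adjusted p = 0.46). In both, WT replicate 2 was the lowest WT library, and without it they were called lower, with log2 fold changes of -0.78 (adjusted p = 0.010) and -0.51 (adjusted p = 0.028) in edgeR's test.

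EPlOSAG00000047686, with 57 bases, was higher in OsRUS1-OX in every library. It had 223, 449 and 482 reads in OsRUS1-OX and 46, 87 and 88 in WT, which is 344 ± 133 normalized counts in OsRUS1-OX and 83.0 ± 15.8 in WT (SD, n = 3 each). The log2 fold change was 2.04 (SE 0.32 and edgeR QL adjusted p = 0.0042), and OsRUS1-OX replicate 1, its lowest OsRUS1-OX library, was still above all WT libraries. The other members of this level were not called. EPlOSAG00000045565, with 71 bases, had 264, 289 and 254 reads in OsRUS1-OX and 240, 266 and 213 in WT (log2 fold change -0.22, SE 0.18). EPlOSAG00000020593, with 75 bases, had 241, 284 and 314 reads in OsRUS1-OX and 163, 83 and 198 in WT (log2 fold change 0.51, SE 0.33).

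The QL test was run over the 19694 features that passed the filter on low counts, and a feature was called below a Benjamini-Hochberg adjusted p of 0.05. Of the members, 302 were tested and 48 were called (15.9%), beside 23.6% of all tested features. Higher in OsRUS1-OX were 15 members (4.97%), beside 11.8% of all tested features, and lower were 33 (10.9%), beside 11.8%. Normalized counts of the genotypes did not overlap in 99 members (32.8%), beside 42.4% of all tested features, and all 48 called members were among them.

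Without WT replicate 2, 60 members were called (19.4%), beside 25.9% of all tested features. Higher were 13 (4.21%), beside 12.9%, and lower were 47 (15.2%), beside 13.0%. The share of decreases was thus near that of all features both with and without this library. Only 2 WT libraries then remain, and 171 members (55.3%) did not overlap between genotypes, beside 57.4% of all tested features. The counts also depended on the OsRUS1-OX libraries, where 26 members (8.5%) were called without OsRUS1-OX replicate 2, beside 12.5% of all tested features, and 19 (6.21%) without OsRUS1-OX replicate 3, beside 11.9%. The calls over all features fell in the same fits. Without OsRUS1-OX replicate 1 the share was 12.8% in members, beside 19.4%, without WT replicate 1 it was 11.3%, beside 17.2%, and without WT replicate 3 it was 11.3%, beside 18.6%.

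The gap between members and all features also depended on the test. DESeq2 called 17.3% of members, beside 26.3% of all tested features, and the edgeR QL test called 15.9% with RLE size factors, beside 23.5%, and 15.9% with library totals alone, beside 23.1%. With the replicate number as a block it called 14.2%, beside 20.4%, and without the filter on low counts 14.2%, beside 15.3%. Under limma on log2 FPKM with pseudocounts of 0.1 and 1, members were called at shares of 19% and 20.3%, slightly above the 18.6% and 19.4% of all tested features. In these limma fits the decreases were 12.3% and 12.9% of members, beside 7.63% and 7.91% of all tested features.

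The direction of the calls differed with the genotype through which members entered. Among the 190 members that met the read rule in both genotypes 5 were called higher and 17 lower, with a median log2 fold change of -0.16. With all 6 libraries both counts were below the shares in all tested features, of which 11.8% were called higher and 11.8% lower. Among the 74 tested members that met it in OsRUS1-OX only 10 were called higher and 0 lower, and among the 38 that met it in WT only 0 were called higher and 16 lower. A member that entered through 1 genotype had to be high there, so these counts describe the choice of members. Without WT replicate 2 the calls were 5 higher and 29 lower among members that entered through both genotypes, 8 and 0 among those that entered through OsRUS1-OX only and 0 and 18 among those that entered through WT only. In that fit 12.9% of all tested features were called higher and 13.0% lower. Of the 190 members that entered through both genotypes, the 5 called higher stayed below that share, but the 29 called lower were above it. Over all tested members the median log2 fold change was -0.15, and 180 of 302 (59.6%) were below 0, against a median of -0.01 and 51.0% for all tested features. The members' median was -0.26 without WT replicate 2 (196 of 309 below 0) and -0.02 without WT replicate 3 (160 of 309 below 0). Under limma on log2(FPKM + 1), which is scaled by the library totals, the members' median was 0.02 and that of all features tested was 0.06. With the edgeR test on library totals alone these medians were -0.08 and 0.06, and 163 of 302 members were below 0.

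The median standard error of the log2 fold change was 0.36 in members and 0.21 over all tested features, which had more reads. At equal normalized counts it was 0.40 in members and 0.40 in RAP features between 10 and 20 counts, the level with the most members, and 0.34 in members and 0.33 in RAP features between 20 and 50 counts. From 50 counts upward it was larger in members, with 0.32 in members and 0.25 in RAP features between 50 and 100 counts. The median coefficient of variation among OsRUS1-OX libraries at these 3 levels was 26.4%, 20.2% and 12.8% in members and 25.6%, 20.7% and 15.5% in RAP features. Among WT libraries it was 34.9%, 34.2% and 41% in members and 35.6%, 29.7% and 22.7% in RAP features. Calls at the same levels were made for 14.7%, 16.7% and 15.7% of members and for 20.7%, 19.2% and 19.9% of RAP features.

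**Figure D4:**
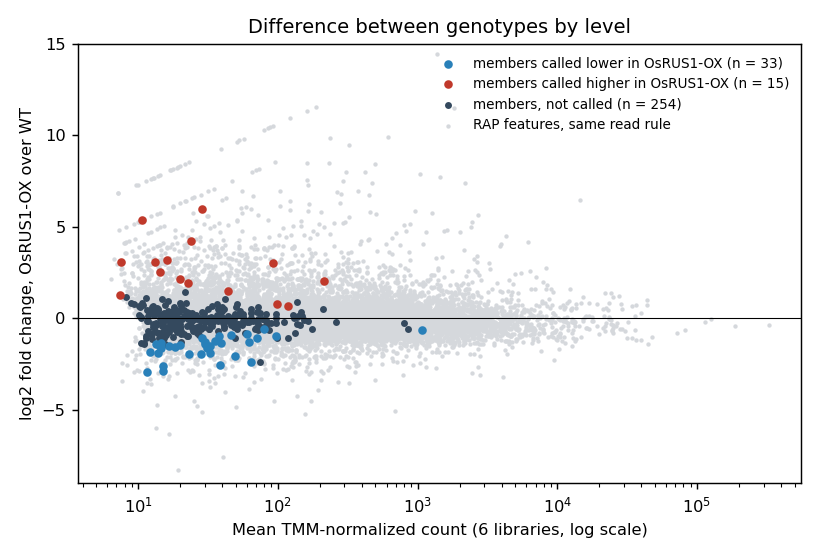
Fitted log2 fold change of OsRUS1-OX over WT against the mean normalized count over the 6 libraries (log scale) for the 302 tested members, coloured by call in the edgeR QL test, with RAP features under the same read rule in grey. The 15 members called higher reach a log2 fold change of 5.96, the 33 called lower reach -2.92, and most called members have fewer than 100 normalized counts.

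Since 10 of the 15 members called higher entered through OsRUS1-OX only and 16 of the 33 called lower through WT only, the sizes of their changes rest in part on how members were chosen and are a description. The members called higher had a median log2 fold change of 2.56, from 0.68 to 5.96, and 13 of 15 were past 2-fold and 7 past 8-fold. In the 5 that entered through both genotypes the median was 1.51. The members called lower had a median of -1.49, from -0.60 to -2.92, and 27 of 33 were past 2-fold but 0 past 8-fold. In the 17 that entered through both genotypes the median was -1.26. Without WT replicate 2, 11 of the members called higher and 34 of those called lower were past 2-fold. The median length was 85 bases in members called higher, 71 bases in those called lower and 69 bases in the 254 not called.

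In 6 members every WT library had 3 reads or fewer, and none had this in OsRUS1-OX. All 6 entered through OsRUS1-OX only, so the rule itself favoured an increase in them. Their folds rest on few WT reads, so the ratio of the summed counts, scaled by the TMM library sizes, is given with its exact 95% counting interval. EPlOSAG00000003900, with 106 bases, had 49, 101 and 34 reads in OsRUS1-OX and 2, 0 and 0 in WT, a ratio of 70.8 (19.3 to 589). EPlOSAG00000024680, with 90 bases, had 30, 15 and 27 reads in OsRUS1-OX and 0, 1 and 0 in WT, a ratio of 55.4 (9.64 to 2220). EPlOSAG00000023394, with 25 bases, had 22, 73 and 56 reads in OsRUS1-OX and 3, 0 and 3 in WT, a ratio of 19.4 (8.70 to 53.6). The genotypes did not overlap in any of them, which the read rule and the limit of 3 WT reads had set in advance. The fitted log2 fold changes were 5.96, 5.38 and 4.22 (edgeR QL adjusted p = 0.0040, 0.0021 and 0.0078). As these members were picked among the called increases, their calls are a description. The first and second of these fits depend on single WT libraries, and they were 8.89 for EPlOSAG00000003900 without WT replicate 1 and 7.42 for EPlOSAG00000024680 without WT replicate 2, in each case the only WT library with a read.

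The next increases were of about the same size as each other. EPlOSAG00000007153, with 119 bases, had 30, 45 and 21 reads in OsRUS1-OX and 3, 2 and 3 in WT, a ratio of 9.24 (4.50 to 22). EPlOSAG00000044503, with 235 bases the second longest member, had 42, 13 and 27 reads in OsRUS1-OX and 1, 3 and 3 in WT, a ratio of 9.02 (4.19 to 23.1). EPlOSAG00000019095, with 144 bases, had 12, 17 and 17 reads in OsRUS1-OX and 0, 2 and 2 in WT, a ratio of 8.85 (3.23 to 33.9). In all 3 the same choice had set in advance that every OsRUS1-OX library lay above every WT library. They too were picked among the called increases, so their calls in edgeR's test (adjusted p = 0.0048, 0.0072 and 0.0098) are a description.

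Of the increases, 5 were in members that met the read rule in both genotypes. Besides EPlOSAG00000047686 these were 4 members picked after their values were seen. EPlOSAG00000025431, with 175 bases, had 150, 205 and 199 reads in OsRUS1-OX and 12, 25 and 16 in WT. The lowest OsRUS1-OX library was far above the highest WT library, and the log2 fold change was 3.02 (SE 0.27 and edgeR QL adjusted p = 0.00055). EPlOSAG00000020851, with 70 bases, had 68, 72 and 79 reads in OsRUS1-OX and 22, 11 and 25 in WT, a log2 fold change of 1.51 (SE 0.35). EPlOSAG00000021160 and EPlOSAG00000051472 rose less, with log2 fold changes of 0.80 and 0.68 (adjusted p = 0.027 and 0.045 in edgeR's test), and they were called in only 2 and 1 of the 6 fits that left out a library, with adjusted p up to 0.084 and 0.17 over the alternatives. EPlOSAG00000020851 was called in 4 of these fits, with adjusted p up to 0.064, and EPlOSAG00000025431 in all 6.

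**Figure D5:**
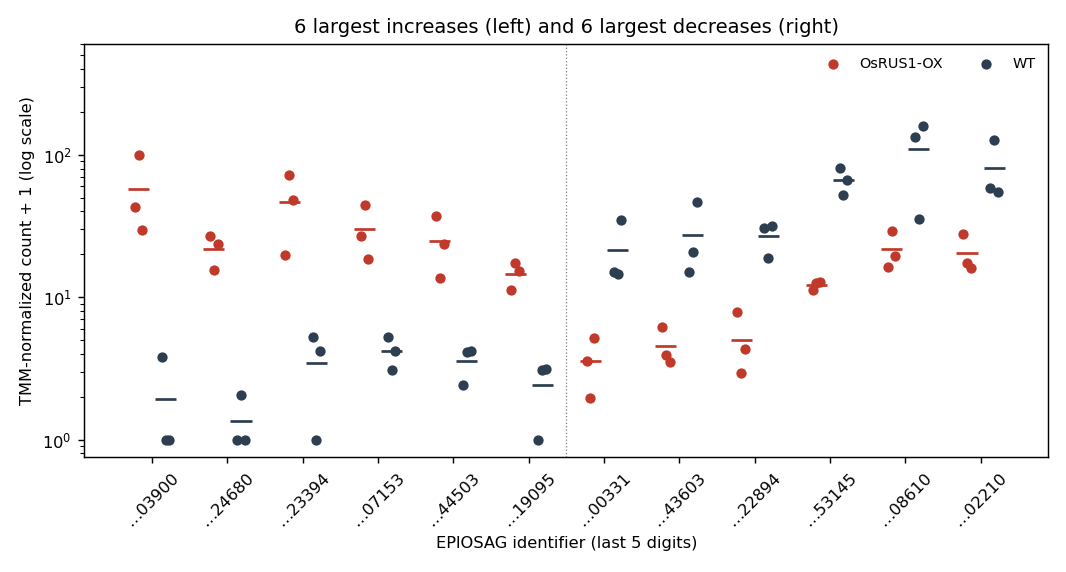
Normalized count plus 1 (log scale) in each library for the 6 members with the largest fitted increase and the 6 with the largest fitted decrease among called members without overlap; red points are OsRUS1-OX libraries, dark points WT libraries and lines group means. In the increases each WT library has 3 reads or fewer, while in the decreases every OsRUS1-OX library has reads.

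EPlOSAG00000053145, with 61 bases, had 12, 12 and 14 reads in OsRUS1-OX and 57, 49 and 62 in WT, which is 11.2 ± 0.808 normalized counts in OsRUS1-OX and 65.7 ± 14.4 in WT (SD, n = 3 each). It fell by 2.53 on the log2 scale (SE 0.28 and edgeR QL adjusted p = 0.0011). Its OsRUS1-OX libraries were even, while its WT libraries were spread more widely. EPlOSAG00000022894, also of 61 bases, had 8, 2 and 4 reads in OsRUS1-OX and 21, 17 and 29 in WT, and fell by 2.62 (SE 0.47). EPlOSAG00000000331, with 42 bases, had 3, 1 and 5 reads in OsRUS1-OX and 10, 13 and 32 in WT, the largest fitted decrease at -2.92 (SE 0.60). EPlOSAG00000022894 and EPlOSAG00000000331 entered through WT only, so the rule itself favoured a decrease in them. The WT value of EPlOSAG00000000331 was highest in WT replicate 3, and without that library its log2 fold change was -2.34.

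In the other decreases 1 WT library was also well above the other 2, or 1 well below. EPlOSAG00000043603, with 193 bases and also entered through WT only, had 6, 3 and 3 reads in OsRUS1-OX and 10, 19 and 43 in WT (log2 fold change -2.88, SE 0.57). EPlOSAG00000008610, with 39 bases, had 18, 29 and 22 reads in OsRUS1-OX and 94, 33 and 149 in WT (log2 fold change -2.38, SE 0.55). EPlOSAG00000002210, with 71 bases, had 31, 17 and 18 reads in OsRUS1-OX and 41, 121 and 51 in WT (log2 fold change -2.03, SE 0.42). The highest WT library was replicate 3 in the first and second of these and replicate 2 in the last. None of the 3 was called without OsRUS1-OX replicate 3 (adjusted p = 0.051, 0.072 and 0.053 in edgeR's test). EPlOSAG00000008610 was also not called without OsRUS1-OX replicate 1 (adjusted p = 0.054), WT replicate 1 (0.051) or WT replicate 3 (0.051).

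Of the 48 called members, 18 were called in all 6 fits that left out 1 library, 9 higher and 9 lower, and 16 were called in at most 2 of these fits. Besides EPlOSAG00000022933 and EPlOSAG00000008610, 5 members with a mean of at least 50 reads were called lower, and 2 of them are given here, picked after their values were seen. EPlOSAG00000021175, with 76 bases, had 46, 31 and 46 reads in OsRUS1-OX and 57, 109 and 65 in WT, a fall by 1.28 on the log2 scale (SE 0.26 and edgeR QL adjusted p = 0.011). EPlOSAG00000050096, with 76 bases, had 74, 57 and 97 reads in OsRUS1-OX and 76, 152 and 114 in WT, a fall by 0.95 (SE 0.23 and edgeR QL adjusted p = 0.022). In both, the normalized counts of the genotypes did not overlap.

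Some of the members with the widest spread differed by 1 library only. EPlOSAG00000016535, with 88 bases, had 45, 19 and 18 reads in OsRUS1-OX and 9, 332 and 14 in WT. Its log2 fold change was -2.39 (SE 1.17 and edgeR QL adjusted p = 0.18), and without WT replicate 2 it was 0.79. EPlOSAG00000045532, with 61 bases, had 70, 45 and 73 reads in OsRUS1-OX and 33, 163 and 28 in WT, and its log2 fold change of -0.59 was 0.55 without the same library. EPlOSAG00000003140, with 65 bases, went the other way, with 89, 89 and 96 reads in OsRUS1-OX and 92, 23 and 130 in WT, so WT replicate 2 was low there. Its log2 fold change was -0.25 (SE 0.52), and without WT replicate 2 it was -0.72 (adjusted p = 0.018 in edgeR's test).

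A low WT replicate 2 recurred among the more abundant members. Of the 71 members with a mean of at least 50 reads, 24 were more than 2-fold below the mean of the other WT libraries in that library. No such count is given for RAP features at this level. EPlOSAG00000021116, with 33 bases and chosen after its values were seen, had 116, 116 and 121 reads in OsRUS1-OX and 89, 21 and 116 in WT. EPlOSAG00000017252, with 37 bases and chosen in the same way, had 181, 256 and 161 reads in OsRUS1-OX and 92, 32 and 119 in WT. Among OsRUS1-OX libraries spreads were smaller, and after EPlOSAG00000016535 and EPlOSAG00000047686 the widest was that of EPlOSAG00000009699, with 68 bases and 85, 64 and 41 reads in OsRUS1-OX and 46, 28 and 77 in WT.

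A few members were steady over all 6 libraries. EPlOSAG00000043615, with 59 bases, had 175, 145 and 174 reads in OsRUS1-OX and 83, 152 and 116 in WT, a coefficient of variation of 11.8% in normalized counts. EPlOSAG00000003178, with 65 bases, had 176, 144 and 179 reads in OsRUS1-OX and 134, 124 and 150 in WT, a coefficient of variation of 13.1%. EPlOSAG00000003498, with 102 bases, had 176, 167 and 184 reads in OsRUS1-OX and 112, 204 and 138 in WT, a coefficient of variation of 15.3%. Their genotypes overlapped, and their log2 fold changes of 0.13, -0.11 and -0.15 had standard errors of 0.17, 0.17 and 0.18.

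Members with consecutive identifiers had unlike counts. Only 2 members had an identifier that directly follows that of another, and both pairs are given here. EPlOSAG00000002160, with 64 bases, had 19, 9 and 19 reads in OsRUS1-OX and 42, 38 and 52 in WT, entered through WT only, and was called lower with a log2 fold change of -1.89 (SE 0.32 and edgeR QL adjusted p = 0.0058). EPlOSAG00000002161, of the same 64 bases, had 137, 132 and 159 reads in OsRUS1-OX and 142, 118 and 151 in WT, with a log2 fold change of -0.35 (SE 0.20 and edgeR QL adjusted p = 0.25). The other pair was EPlOSAG00000004225 and EPlOSAG00000004226, with 138 and 87 bases, and EPlOSAG00000004226 had 25, 17 and 13 reads in OsRUS1-OX and 12, 13 and 3 in WT. Whether neighbouring identifiers lie side by side in the genome is not given by the files, and the difference between paired members was not tested.

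Of the 485 pairs of members with equal length, 1 pair had equal counts in 3 libraries. EPlOSAG00000005543 had 36, 29 and 33 reads in OsRUS1-OX and 30, 20 and 49 in WT, and EPlOSAG00000008047 had 30, 26 and 32 reads in OsRUS1-OX and the same 30, 20 and 49 in WT. Both had 87 bases. The files do not say whether they are copies of 1 sequence, so the reads of these 2 members are uncertain, and neither was called.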

How the data were processed

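RNA of flag leaves was sequenced in 3 OsRUS1-OX and 3 WT libraries. The authors filtered the read pairs, aligned them to the Ensembl Plants rice genome with TopHat2 2.0.12 and counted reads per feature with HTSeq 0.6.1, and deposited these raw counts unscaled. For FPKM, the authors divided each count by the feature length and the library total, which allowed the lengths to be recovered. No column of fold changes or p-values was present, and 0 columns were left unused. Columns of the transgenic samples carry another name than the titles and were matched by genotype and replicate number.

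The test was the quasi-likelihood (QL) test of edgeR 4.0.16 on R 4.3.3 (TMM scaling, filterByExpr, all features, Benjamini-Hochberg adjustment). Alternatives were DESeq2 1.42.0, limma 3.58.1 on log2 FPKM with a pseudocount of 1 or 0.1, RLE size factors, library totals alone, no filter on low counts, other read minimums, the replicate number as a block and leaving out each library. The p-values measure the spread between 3 pooled samples per genotype.

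Members, lists and the rule for named features were chosen with earlier results of these data known. Named features were the 6 members of highest CPM, the 6 largest called increases and decreases without overlap, the 2 shortest and 2 longest, members without reads in a genotype (0 found), 2 on each side of the read minimum, the 3 of widest range in each genotype (at least 50 mean reads) and the 3 of smallest coefficient of variation (at least 100 normalized counts).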

Additional observations from a re-analysis of the deposited data

How the results depend on the processing

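The number of called members was between 44 and 63 with DESeq2 (52), RLE size factors (48), library totals alone (48), limma on log2(FPKM + 0.1) (59), limma on log2(FPKM + 1) (63) and no filter on low counts (44), against 48 in the edgeR fit. In percent of tested members these were 14.2% to 20.3%, and under both limma fits, at 19% and 20.3%, the members' share was above that of all tested features (18.6% and 19.4%), whereas it was below in the others. The replicate block gave 43 called members, 14 higher (4.64%) and 29 lower (9.6%). In that fit 20.4% of all tested features were called, 10.5% higher and 9.86% lower. Correlations of deviations between same-numbered libraries were 0.13, -0.09 and 0.11, and those between differently numbered libraries were -0.24 to 0.17. These values cannot show whether equal numbers pair the samples. With limma on log2(FPKM + 1), 23 members were called higher (7.42%), beside 11.5% of all tested features. With 10 reads required in both genotypes 190 members remained in the list and 22 were called, 5 higher and 17 lower. A minimum of 5 reads gave 505 members, and 20 reads gave 174 members with 33 called. The calls under these read minimums were those of the main edgeR fit. They stand beside 23.6% of all tested features called, 11.8% higher and 11.8% lower. Leaving out 1 library gave 19 to 60 called members, 9 to 14 higher and 10 to 47 lower, with the fewest without OsRUS1-OX replicates 2 and 3 and, for decreases, also without WT replicate 3 (21). The shares of all tested features fell in the same fits, to 12.5% and 11.9% without OsRUS1-OX replicates 2 and 3, and were highest at 25.9% without WT replicate 2. By direction, 6.73% to 12.9% of all tested features were called higher and 5.19% to 13.0% lower when 1 library was left out. The share difference lay between -0.0338 and -0.00782 percentage points, and the median length was 70 bases from either genotype alone.

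Of the settings tried on named features, 360 kept direction and side of the threshold, 17 turned the direction, 4 gained and 8 lost the call. EPlOSAG00000023394 was not called by limma on log2(FPKM + 0.1) (adjusted p = 0.075), nor was EPlOSAG00000008610 (0.053). EPlOSAG00000026945 was called without WT replicate 1 (-1.62, edgeR adjusted p = 0.029). Direction turned only in features that were not called. Over the fits that left out 1 library the log2 fold change of EPlOSAG00000017483 was -0.36 to 0.35, that of EPlOSAG00000007376 -0.02 to 0.37, of EPlOSAG00000016535 -2.92 to 0.79, of EPlOSAG00000045532 -1.0 to 0.55, of EPlOSAG00000003140 -0.72 to 0.11, of EPlOSAG00000009699 -0.38 to 0.28, of EPlOSAG00000003178 -0.24 to 0.02 and of EPlOSAG00000003498 -0.26 to 0.04. The turn came without WT replicate 2 in EPlOSAG00000017483, EPlOSAG00000016535, EPlOSAG00000045532 and EPlOSAG00000003498, and also without OsRUS1-OX replicate 3 in EPlOSAG00000017483. Limma with a pseudocount of 0.1 and of 1 gave 0.17 and 0.16 for EPlOSAG00000003140 and 0.07 and 0.07 for EPlOSAG00000009699, and library totals alone gave 0.01 for EPlOSAG00000009699. The cause was not tested. Depth limits most members, whose median of 24.3 reads per library leaves a wide counting error.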

Other observations

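EPlOSAG features below the read minimum also held reads. The 3480 features with a read that were not members took 0.0421%, 0.0400% and 0.0402% of the counted reads in OsRUS1-OX and 0.0475%, 0.0420% and 0.0598% in WT. Of these features 35 were tested, and 3 were called, all lower in OsRUS1-OX, beside 11.8% of all tested features called lower. All 3 had 9 reads or fewer in every OsRUS1-OX library and passed the filter on low counts through WT. Their direction was thus favoured by the choice of features and is a description. EPlOSAG00000003242 had 5, 0 and 4 reads in OsRUS1-OX and 8, 16 and 11 in WT (log2 fold change -2.29, SE 0.65 and edgeR QL adjusted p = 0.039). EPlOSAG00000007382 had 2, 2 and 5 reads in OsRUS1-OX and 8, 10 and 13 in WT (log2 fold change -2.11). EPlOSAG00000013462 had 9, 6 and 8 reads in OsRUS1-OX and 8, 17 and 22 in WT (log2 fold change -1.37). These 3 were named after their values were seen. Without WT replicate 2, 67 non-members were tested and 5 were called, all lower, beside 13.0% of all tested features called lower. How these 5 passed the filter was not examined, so their direction is also a description.

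The filter on low counts left out 8 members, all of which met the read rule in OsRUS1-OX only. EPlOSAG00000046044, with 68 bases and chosen after its values were seen, had 17, 10 and 10 reads in OsRUS1-OX and 1, 23 and 6 in WT.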
